A study of Caenorhabditis elegans with 6 samples.

Results

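The cyp-13A genes of Caenorhabditis elegans encode a subfamily of cytochrome P450 enzymes. The probe sets were taken from the Affymetrix arrays by annotation alone: a probe set was kept where the platform annotation lists 1 gene only and that gene is cyp-13A1 to cyp-13A8 or cyp-13A10. This gave 9 probe sets for 9 genes, 1 each, out of 22548 probe sets tested and 17118 genes with a probe set of their own. The related genes cyp-13A11 and cyp-13A12 share a single probe set and are not among the 9. Whole worms of strain CB3474, genotype ben-1(e1880)III, were raised from the first larval stage for 70 h in liquid culture at 20 °C, and 3 samples were then exposed to albendazole (ABZ, 300 µg/ml, delivered in dimethyl sulfoxide, DMSO, at 1.5% by volume) for 4 h. The 3 control samples received the same 1.5% of DMSO without the drug. The labels call the samples biological replicates and mention no pooling of cultures. The ben-1 mutation is carried by both groups, and no worms without it were measured.

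Cytochrome P450 enzymes are heme proteins of the endoplasmic reticulum that insert an oxygen atom into their substrates, the first step (phase I) in the clearance of many drugs and plant toxins. They draw electrons from the P450 reductase, encoded in the worm by emb-8, and their products are often coupled to sugars or glutathione by UDP-glycosyltransferases and glutathione S-transferases (phase II). By sequence, cyp-13A belongs with cyp-13B, cyp-25 and cyp-43 to the worm P450 genes most like the vertebrate CYP3 family. In mammals, albendazole itself is oxidised to its sulfoxide by CYP3A enzymes and flavin monooxygenases. Transcripts of several worm P450 genes are known to rise when worms meet foreign compounds, and cyp-13A7 in particular has been used as a readout of the response to rifampicin.

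All 9 cyp-13A probe sets had a lower mean signal with albendazole than with DMSO, and none of these differences passed the test. Signals are given as log2 values, so a difference of -1 is a halving. The differences ran from -0.04 for cyp-13A2 to -0.78 for cyp-13A8, with a median of -0.19, against a median of 0.02 over all probe sets. With limma and Benjamini-Hochberg adjustment over all 22548 probe sets, 0 of the 9 were called at an adjusted p under 0.05, as were 0% of all probe sets in either direction. At an unadjusted p under 0.05 there were also 0 of the 9, against 1.86% of all probe sets (1.52% higher, 0.341% lower; 2.97% and 2.77% without DMSO replicate 1). A negative difference as such is common here: 46.7% of all probe sets had one (56.8% without DMSO replicate 1, where it was still 9 of 9 cyp-13A genes), and 80.8% of those in the dimmest of 5 equal bins by mean signal. In whole worms, fewer cells that carry a transcript and less transcript per cell cannot be told apart.

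One array, DMSO replicate 1, differed from the rest in its spread and in its correlation with them, and the cyp-13A values depend on it. Over all probe sets its SD was 1.73, where the others had 1.98 to 2.017, and its correlation with each of them was 0.934 to 0.943, against 0.988 to 0.996 among the rest. On this array dim probe sets lay above the mean of the other 5 (median 0.22 in the dimmest bin, 0.28 in the next) and the brightest below it (median -0.59). Of the cyp-13A probe sets, 6 are in the dimmest bin, 2 in the next and 1, that of cyp-13A8, in the middle bin. The differences of the 9 genes are therefore given with and without this array. The mutated gene ben-1 had signals of 8.67 to 8.99 with albendazole and of 7.95, 8.65 and 8.63 with DMSO, which does not check the genotype, since the labels do not say whether the allele alters the transcript. Marker genes of the labelled tissue, whole worms, were measured for intestine (9 of 10), body wall muscle (6 of 6), neurons (7 of 7), epidermis and adult cuticle (5 of 5), germline and oocytes (8 of 8), sperm (5 of 6), pharynx and glands (4 of 4) and the excretory cell (3 of 3), and 0 of these genes were called. DMSO replicate 1 had the lowest mean of the 3 DMSO arrays for 6 of these 8 lists. These were intestine (11.84, against up to 12.24), muscle (11.53, up to 12.07) and neurons (9.42, up to 9.85). They also included germline (11.28, up to 12.25), pharynx (8.35, up to 8.67) and the excretory cell (8.75, up to 9.27). All measured genes of the intestine, muscle, germline and excretory cell lists lie in the 2 brightest bins. Over all probe sets of those bins, DMSO replicate 1 lay below the mean of the other 5 arrays as well (median -0.58 and -0.59). A low mean on this array is thus not particular to these lists. For sperm (9.18, against as little as 7.92) and cuticle (10.39, against as little as 10.17) DMSO replicate 1 had the highest mean of the DMSO arrays. The sperm genes msp-3, msp-142, gsp-3 and spe-11 were highest on replicate 1 of both groups. The signal of msp-3 was 12.75 on ABZ replicate 1 and 12.49 on DMSO replicate 1, against 10.29 to 10.87 on the others. In spe-9, DMSO replicate 1 was the highest array but ABZ replicate 1 was not raised. Within the cuticle list the genes went both ways: bli-1 was at 8.19 on this array and at no more than 7.08 on the other DMSO arrays, while the adult collagen gene col-19 was at 11.36 against 11.96 and 12.37. The albendazole arrays ranged from 12.02 to 12.35 for intestine, 11.85 to 12.10 for germline, 8.13 to 9.39 for sperm and 10.15 to 10.28 for cuticle. Whether these differences bear on the cyp-13A signals was not tested.

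**Figure D1:**
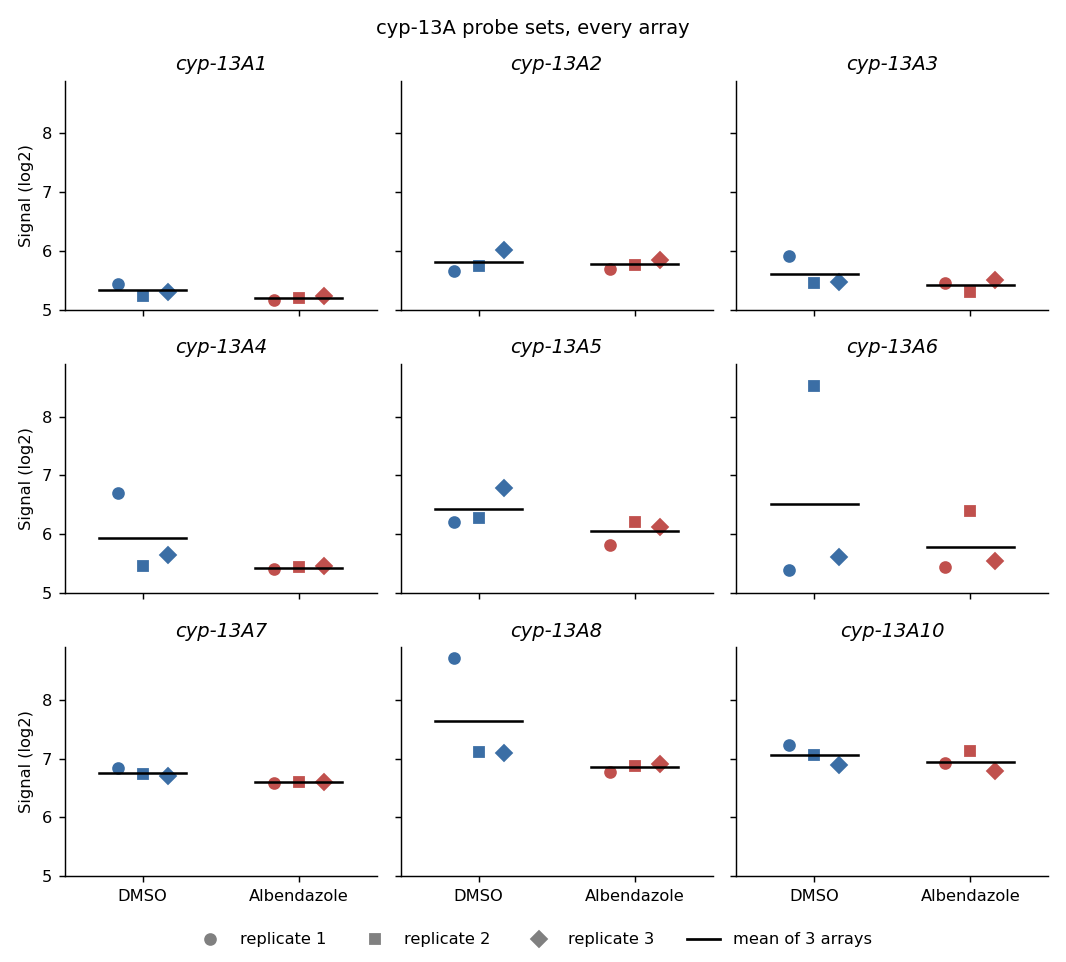
Log2 signal of each cyp-13A probe set (vertical axis, shared by all panels) on the 3 DMSO and the 3 albendazole arrays; marker shapes give the replicate number and black lines the mean of 3 arrays. The single high points are cyp-13A6 on DMSO replicate 2 (8.53) and cyp-13A8 (8.71) and cyp-13A4 (6.71) on DMSO replicate 1.

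The widest gap between the group means was that of cyp-13A8. Its signal was 6.78, 6.87 and 6.91 on the 3 albendazole arrays and 8.71, 7.11 and 7.10 on the 3 DMSO arrays. All 3 albendazole values lay below all 3 DMSO values, and DMSO replicate 1 was far above the other 2. The means were 6.85 ± 0.07 and 7.64 ± 0.93 (SD, n = 3 each), and the log2 fold change was -0.78 (SE 0.44, 95% interval -1.87 to 0.30, limma adjusted p 0.651). Without DMSO replicate 1 the difference shrank to -0.25, 1.19-fold lower with albendazole, and its spread shrank more (SE 0.07, interval -0.41 to -0.08, unadjusted p 0.0111, limma adjusted p 0.775). In cyp-13A8 the excess of DMSO replicate 1 over the mean of the other arrays, 1.76, is within the top 0.634% of all probe sets.

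The gene cyp-13A4, of the same run on the chromosome, had a similar profile at a dimmer signal. It stood at 5.41, 5.44 and 5.46 with albendazole and at 6.71, 5.46 and 5.65 with DMSO. The groups did not overlap, but ABZ replicate 3 (5.456) and DMSO replicate 2 (5.459) were nearly equal. The log2 fold change of -0.50 (SE 0.33, limma adjusted p 0.651) became -0.12 without DMSO replicate 1, so most of it came from that array. Its excess there was 1.23, where the median of the dimmest bin is 0.22.

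The probe set of cyp-13A6 was the most variable of the 9, and its variation did not follow the treatment. Signals were 5.44, 6.40 and 5.54 with albendazole and 5.39, 8.53 and 5.61 with DMSO. DMSO replicate 2 alone was 2.85 above the mean of the other arrays, ABZ replicate 2 was the next highest, and the other 4 arrays lay between 5.39 and 5.61. Of all 22548 probe sets, 3 lay 2 or more above the mean of the other arrays on DMSO replicate 2, so this array was not high in general. The log2 fold change was -0.72 with a wide interval (-2.80 to 1.37, SE 0.86, limma adjusted p 0.679), and it turned to 0.29 when DMSO replicate 2 was left out. Without DMSO replicate 1, where its signal was lowest, it was -1.28 (SE 0.84).

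In cyp-13A5 another DMSO array was the high one. It had 5.82, 6.21 and 6.13 with albendazole and 6.21, 6.27 and 6.80 with DMSO. Here DMSO replicate 3 was highest and ABZ replicate 1 lowest, and the groups were separated by 0.001 between ABZ replicate 2 and DMSO replicate 1. With a log2 fold change of -0.37 (SE 0.20, 1.29-fold lower) it had the smallest unadjusted p of the 9, 0.108, and a limma adjusted p of 0.651. Without DMSO replicate 1 the value was -0.48 (unadjusted p 0.0448, limma adjusted p 0.775). It shrank to -0.19 (unadjusted p 0.298) without DMSO replicate 3, and it was -0.26 without ABZ replicate 1. By the root mean square difference of centred profiles over the 6 arrays, the genes most like cyp-13A5 among 17109 others were dpsm-1 (0.104), ZK1025.1 (0.104) and Y58A7A.4 (0.117). The profile of cyp-13A5 itself had an SD of 0.32 over the arrays. No cyp-13A gene had a higher mean with albendazole, so no such comparison was made on that side.

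The probe set of cyp-13A7 varied least of the 9 within each group. Its values were 6.59, 6.61 and 6.60 with albendazole and 6.84, 6.75 and 6.70 with DMSO. The groups did not overlap, and the SD of 0.005 among the albendazole arrays is matched or undercut by 0.333% of all probe sets. The difference was small, at -0.16 (SE 0.09, 1.12-fold lower, interval -0.39 to 0.06, limma adjusted p 0.651), and -0.13 without DMSO replicate 1. The small spread and the lack of overlap hold for the deposited values. Under quantile normalization the albendazole values were 6.665, 6.664 and 6.637. DMSO replicate 1 was then at 6.63, below all 3 of them.

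For the remaining 4 genes the differences were at most 0.19 in size. The signal of cyp-13A1 was 5.17, 5.19 and 5.24 with albendazole and 5.43, 5.24 and 5.31 with DMSO, groups that did not overlap by a margin of 0.006. That of cyp-13A3 was 5.45, 5.31 and 5.51 against 5.91, 5.46 and 5.47, and the groups overlapped. These are near the lowest value of the whole table, 4.89, and the table holds no detection calls, so it could not be read from it whether they lie above background. The probe set of cyp-13A2 gave 5.70, 5.77 and 5.85 against 5.66, 5.75 and 6.02, and that of cyp-13A10 gave 6.92, 7.13 and 6.79 against 7.23, 7.07 and 6.89. Both pairs of groups overlapped. Log2 fold changes were -0.13 (SE 0.10) for cyp-13A1, -0.19 (SE 0.16) for cyp-13A3, -0.04 (SE 0.13) for cyp-13A2 and -0.11 (SE 0.14) for cyp-13A10. Without DMSO replicate 1 they were -0.08, -0.04, -0.11 and -0.03 in the same order, so each moved by over 1.5 times, 3 towards 0 and that of cyp-13A2 away from it.

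**Figure D2:**
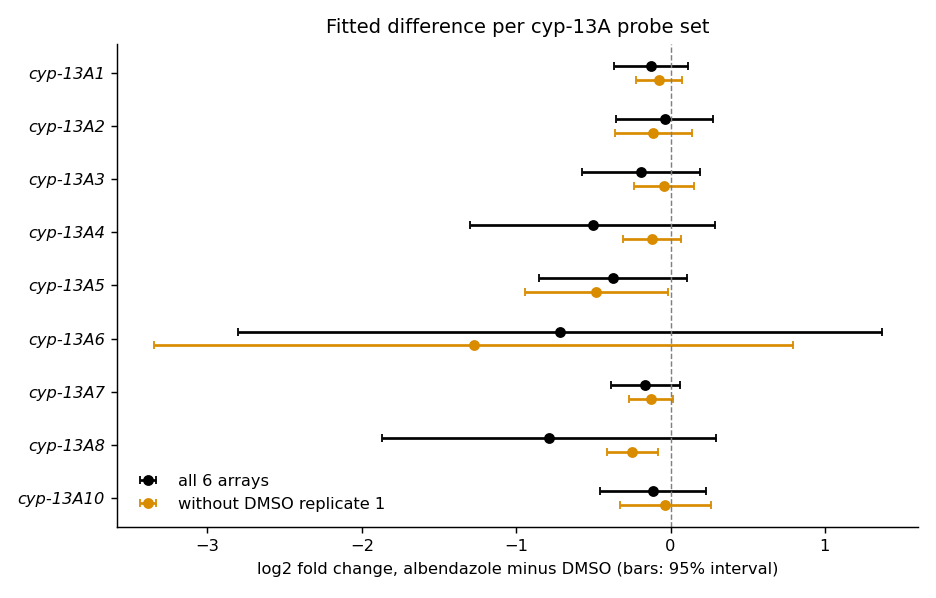
Log2 fold change of each cyp-13A probe set, albendazole minus DMSO (horizontal axis), with its 95% interval from limma, over all 6 arrays (black) and without DMSO replicate 1 (orange). With all arrays every interval holds 0; without DMSO replicate 1 those of cyp-13A5 and cyp-13A8 (-0.41 to -0.08) lie below 0.

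Counted together, 5 of the 9 probe sets (cyp-13A1, cyp-13A4, cyp-13A5, cyp-13A7 and cyp-13A8) had all albendazole arrays below all DMSO arrays and 0 had them above. Over all probe sets 10.1% showed the first order and 7.81% the second, together 17.9%. The first was seen in 17.6% and 17.8% of the dimmest and second bins, which hold 4 of the 5. The count depended on the scale between arrays. It was 3 with the arrays shifted to 1 median and 1, cyp-13A8, with quantile or with cyclic loess normalization, where 9.73%, 7.52% and 7.05% of all probe sets showed this order. Under quantile normalization the log2 fold change of cyp-13A7 was -0.05, that of cyp-13A1 -0.08, and that of cyp-13A2 turned to 0.05. In cyp-13A8 it was -0.87 under quantile and -0.70 under cyclic loess normalization, with DMSO replicate 1 again the highest array. Without DMSO replicate 1, 2 of the 9 had an unadjusted p under 0.05, cyp-13A5 and cyp-13A8, against 5.74% of all probe sets, and 0 were called after adjustment. The count of 5 stayed as it was, with the same genes, against 15% of all probe sets (25.2% with either order). In the dimmest and second bins 21.7% and 21.8% then showed this order. Leaving out an array cannot undo such an order.

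**Figure D3:**
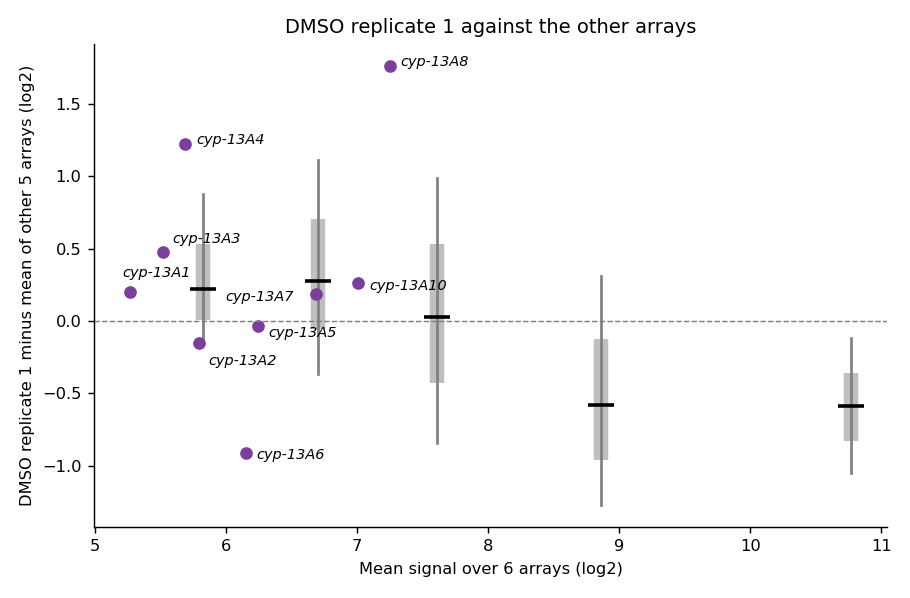
Signal on DMSO replicate 1 minus the mean of the other 5 arrays (vertical axis, log2) against mean signal over the 6 arrays (horizontal axis, log2). Grey bars show all probe sets in 5 equal bins by mean signal (thick 25th to 75th percentile, thin 10th to 90th, black line the median), and purple points are the cyp-13A probe sets; cyp-13A8 (1.76) and cyp-13A4 (1.23) lie above the 90th percentile of the nearest bins and cyp-13A6 (-0.91) and, narrowly, cyp-13A2 (-0.15) below the 10th.

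The array with the highest signal was not the same in all 9 profiles. The highest of the 6 arrays was a DMSO array in 9 of 9 genes: replicate 1 in 6 of them, replicate 3 in cyp-13A2 and cyp-13A5, and replicate 2 in cyp-13A6. Over all probe sets, 36.7% were highest on DMSO replicate 1, and 63.4% of those in the 2 dimmest bins. The SD among DMSO arrays exceeded that among albendazole arrays in 8 of 9 genes, cyp-13A10 being the exception, and in 83.4% of all probe sets. Between centred profiles the root mean square difference over the 6 arrays was smallest for cyp-13A1 and cyp-13A7 (0.0438) and was at least 1.08 in every pair that included cyp-13A6, against at most 0.721 in pairs without it.

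Genes next to each other on the chromosome did not share 1 profile. In the RefSeq gene table of the WBcel235 assembly, 8 of the genes lie in 1 run on chromosome II, in the order cyp-13A1, cyp-13A2, cyp-13A3, cyp-13A4, cyp-13A5, cyp-13A6, cyp-13A7 and cyp-13A8, with the pseudogene cyp-13A9 and the gene T10B9.14 among them. The ninth, cyp-13A10, lies on the same chromosome with 29 genes between it and cyp-13A1. Directly beside each other, cyp-13A6 was high on DMSO replicate 2, cyp-13A7 varied little within either group, and cyp-13A8 was high on DMSO replicate 1. The genes flanking the run had log2 fold changes of 0.20 (nssp-22, before cyp-13A1) and -0.15 (eyg-1, after cyp-13A8), and -0.03 for both without DMSO replicate 1. Those flanking cyp-13A10 had 0.11 (ZK1320.3) and -0.10 (ZK1320.5), and none of the 4 was called. The members resemble each other in sequence, and whether each probe set measures its own gene alone was not tested.

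**Figure D4:**
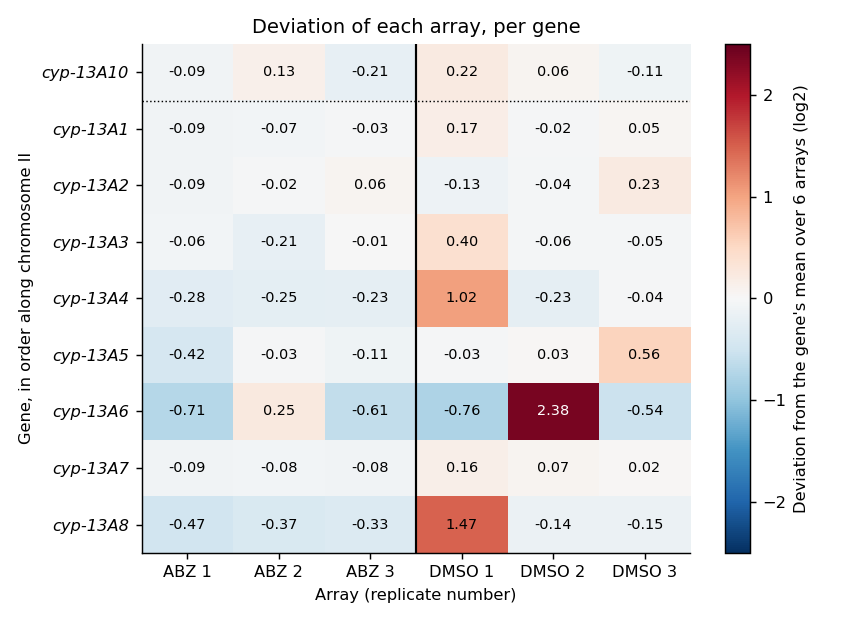
Deviation of each array from the mean of the 6 arrays, per cyp-13A gene (log2; red above, blue below the mean), with genes in their order along chromosome II and the dotted line setting cyp-13A10 off from the run of 8 genes. High values sit on single arrays, 2.38 for cyp-13A6 on DMSO replicate 2 and 1.47 for cyp-13A8 on DMSO replicate 1.

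The 2 family members outside the set were read from a shared probe set, which cannot tell cyp-13A11, a P450 gene like the others, from cyp-13A12, known from worms for its part in the response to reoxygenation. Its signal was 5.60, 5.66 and 5.63 with albendazole and 6.37, 5.66 and 5.69 with DMSO. The groups did not overlap but touched at 5.66, and DMSO replicate 1 stood out once more. The log2 fold change of -0.28 (SE 0.21, limma adjusted p 0.651) became -0.04 without that array.

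Other genes of the P450 system had differences of both signs, and none was called. Over all probe sets, the median log2 fold change was 0.21 and 0.20 in the 2 brightest bins, where 20.2% and 6.23% were negative. Without DMSO replicate 1 these medians were 0.02 and 0.004. Many genes of the lists below, but no cyp-13A gene, are in those bins, and the lists were not matched for signal. Among the other CYP3-like genes, 6 of 9 were measured; 4 had a positive and 2 a negative log2 fold change, the median was 0.15, and 0 had an unadjusted p under 0.05. The largest in this list was cyp-43A1 at 0.55 (8.82 ± 0.28 with DMSO and 9.37 ± 0.38 with albendazole; SD, n = 3 each; limma adjusted p 0.651), followed by cyp-25A1 at 0.37. They stood at 0.39 and 0.17 without DMSO replicate 1. In the sister subfamily, cyp-13B1 (named after its values were seen) was high on the same arrays as cyp-13A6: its brighter probe set read 8.15, 10.56 and 7.96 with albendazole and 8.77, 10.22 and 8.39 with DMSO. Both replicate 2 arrays were thus the highest in cyp-13B1, as they were in cyp-13A6, with a log2 fold change of -0.24 (SE 0.82). Its second probe set was also highest on both replicate 2 arrays and gave 0.34 (SE 1.03). The probe sets gave -0.42 and -0.41 without DMSO replicate 1, so the sign of the second turned.

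The 10 cyp-35 genes, P450 genes known to respond to foreign compounds in the worm, had a median of 0.67 (0.79 without DMSO replicate 1). Of them, 8 were positive and 2 negative. At an unadjusted p under 0.05 there were 3, all higher (4 without DMSO replicate 1). Over all probe sets, 1.52% were higher and 0.341% lower at that cutoff, or 2.97% and 2.77% without DMSO replicate 1. The highest cyp-35 gene was cyp-35A5 at 3.29, on the same arrays on which the cyp-13A genes lay between -0.78 and -0.04. The difference between the subfamilies was not tested. The remaining 49 P450 genes had a median of -0.09, with 2 higher and 1 lower at an unadjusted p under 0.05 (cyp-29A3 at 0.48, cyp-29A2 at 1.13, or 0.73 without DMSO replicate 1, and cyp-33B1 at -0.37); without that array the counts were 2 and 2. Partners of P450 enzymes, 8 genes for electron donors and heme supply, had a median of 0.47 (0.27 without DMSO replicate 1), and 3 had an unadjusted p under 0.05, all higher. They were the heme transporter gene hrg-1 at 0.74, hrg-7, which encodes a secreted protease of heme signalling, at 0.76, and the cytochrome b5 gene cytb-5.1 at 0.61; cytb-5.1 had an unadjusted p of 0.0723 without DMSO replicate 1, which left 2. The reductase gene emb-8 stood at 0.48 (SE 0.25, limma adjusted p 0.651) and at 0.19 without DMSO replicate 1.

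Phase II enzymes, 104 UDP-glycosyltransferase and glutathione S-transferase genes, had a median of 0.04, with 12 higher and 1 lower at an unadjusted p under 0.05, among them gst-5 at 1.78 and ugt-53 at -0.82. There were 12 higher and 7 lower, with a median of 0.02, without DMSO replicate 1. Over all probe sets, 1.52% were higher and 0.341% lower at this cutoff with all arrays, and 2.97% and 2.77% without DMSO replicate 1. Of the regulators of xenobiotic genes, 15 of 18 were measured, with a median of 0.25 (0.07 without DMSO replicate 1) and 0 at an unadjusted p under 0.05. The nuclear receptor gene nhr-8, whose product takes part in the response to foreign compounds in the worm, had 0.42 (SE 0.45), and pmk-1, a p38 MAP kinase of innate immunity, had 0.60 (limma adjusted p 0.651). These were 0.18 and 0.31 without DMSO replicate 1. Values and unadjusted counts not said to be without an array come from the limma fit to all 6 arrays, in which the smallest adjusted p of any probe set was 0.651.

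**Figure D5:**
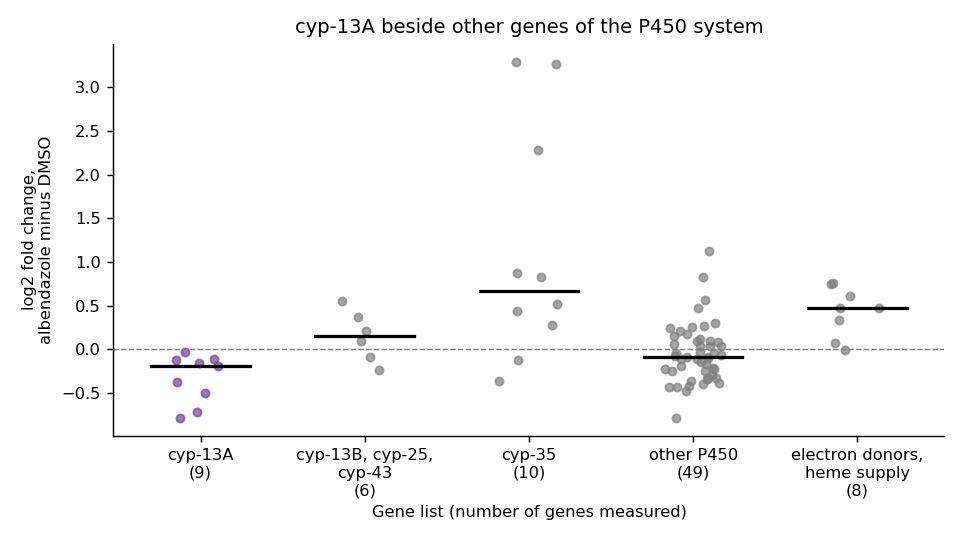
Log2 fold change, albendazole minus DMSO (vertical axis), of the genes of each list (grey points; cyp-13A in purple) with the list's median as a black line and the number of genes measured in brackets. All 9 cyp-13A points lie below 0, between -0.78 and -0.04, while cyp-35 genes reach 3.29. None of the points was called. The lists were not matched for signal level, with which the median over all probe sets changed.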

How the data were processed

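The deposited table holds log2 signal per probe set for 6 arrays; the submitters' processing notes name RMA and limma, with no version. The log2 scale was inferred from the range of values, and the arrays do not share 1 distribution. Of 22625 probe sets, 77 controls were left out. Genes were named from the platform's annotation (20766 probe sets list 1 gene, 887 several and 895 none); all 9 cyp-13A gene numbers matched the RefSeq gene table of WBcel235. The build behind the annotation is not given in the sources used here, so no positions are printed.

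Groups were compared with limma 3.58.1 in R 4.3.3 (lmFit and eBayes, group as the only term, two-sided) over 22548 probe sets with Benjamini-Hochberg adjustment, called under 0.05. Each gene of a list is shown by its brightest probe set. The steps were tested on simulated data in which every array had the same noise. That does not test the fit for an array such as DMSO replicate 1. All 9 members are named. Up to 4 genes per list were eligible by smallest p, and emb-8, nhr-8 and cyp-13B1 were named after their values were seen. The marker genes msp-3 and col-19 were also named outside that rule. The members, lists and tests were chosen with earlier results of these data known. Alternatives were filters, scalings, array weights, a replicate term, variance settings and left-out arrays. Arrays give no depth; their number limits the precision.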

Additional observations from a re-analysis of the deposited data

How the results depend on the processing

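Over 17 alternative settings, 146 values of single cyp-13A genes were computed; 0 were called after adjustment and 5 turned sign. For cyp-13A2 these were quantile (0.0452) and cyclic loess normalization (0.0844), array weights (0.0207) and leaving out DMSO replicate 3 (0.0674), and for cyp-13A6 it was leaving out DMSO replicate 2 (0.292). Leaving out 1 array gave -0.112 to 0.0674 for cyp-13A2 and -1.28 to 0.292 for cyp-13A6. The median over the 9 genes, -0.19, was -0.45 without the dimmest probe sets (1 in 3; 2 genes remained), -0.0998 under quantile and -0.0732 under cyclic loess normalization, -0.0857 with array weights, -0.0831 with gene-by-gene weights and -0.109 when both replicate 1 arrays were dropped. Leaving out 1 array gave -0.23 to -0.12. The count of cyp-13A probe sets at an unadjusted p under 0.05, 0 of 9, was 3 with array weights (20.7% of all probe sets) and with gene-by-gene weights (9.9%), 1 when both replicate 1 arrays were dropped (4.09%), and 1 without DMSO replicate 1 with intensity trend and robust settings (6.16%). Leaving out 1 array gave 0 to 2, the 2 being without DMSO replicate 1. With default array weights the 3 were cyp-13A6 (-2.44, limma adjusted p 0.106), cyp-13A7 (-0.15, limma adjusted p 0.137) and cyp-13A8 (-0.24, limma adjusted p 0.17). These weights gave DMSO replicate 2 a value of 10.4 and DMSO replicate 1 0.0428, and their fit stopped before it converged, so gene-by-gene weights were added after the values were seen. The count of non-overlapping lower probe sets, 5, was 3 with shifted medians and 1 under quantile and cyclic loess normalization; leaving out 1 array gave 5 to 6, where 12.6% to 18.9% of all probe sets showed this order. Over all probe sets 28 were called with array weights, 5 with gene-by-gene weights and 2 without DMSO replicate 1 with intensity trend and robust settings, and 0 in the other settings. The scaling and left-out alternatives for the count of non-overlapping probe sets were also added after the values were seen.

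With the replicate block the median was -0.19 and 0 of 9 probe sets had an unadjusted p under 0.05. Deviations of same-numbered arrays correlated at 0.125, 0.264 and 0.066 across probe sets. Each array correlated best with its own number, a hint from the data and not from the design. For DMSO replicate 3 the margin was small, 0.066 against 0.0625 with ABZ replicate 2. The number of arrays limits every value, and no detection calls show which dim probe sets lie above background.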

Other observations

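Some genes outside the P450 family, looked up after the values had been seen, were also highest on both replicate 2 arrays, as cyp-13A6 was. They were chosen by likeness to cyp-13A6 or by their excess on DMSO replicate 2. A high signal on DMSO replicate 2 therefore follows from the choice, as does the whole profile for those chosen by likeness. In cyp-13A6, ABZ replicate 2 lay only 0.30 above the mean of the other arrays. By root mean square difference of centred profiles the nearest genes were the lysosomal lipase gene lipl-1 (0.52), ugt-61 (0.556) and F59A7.2 (0.688). The profile of cyp-13A6 itself had an SD of 1.22 over the arrays. The signal of F59A7.2 was also raised on DMSO replicate 3 (8.98), against 9.61 on ABZ replicate 2 and 9.77 on DMSO replicate 2. The signal of lipl-1 was 9.89 on ABZ replicate 2 and 10.58 on DMSO replicate 2, and at most 9.005 on the other 4 arrays. The probe sets with the largest excess on DMSO replicate 2 were those of the acyl-CoA dehydrogenase gene acdh-1 (2.88), cyp-13A6 (2.85), the fatty acid desaturase gene fat-7 (2.1), clec-47 (1.9) and the dimmer probe set of cyp-13B1 (1.87). In fat-7 the signal was 11.76 on ABZ replicate 2 and 11.65 on DMSO replicate 2, and 8.46 to 9.35 on the other 4 arrays. In acdh-1 it was 13.34, 13.36 and 13.37 on ABZ replicate 2, DMSO replicate 2 and DMSO replicate 3, against 7.99 to 9.46 on the other 3.

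The profiles of cyp-13A8 and cyp-13A4 had much closer counterparts, chosen in the same way. For cyp-13A8 they were lgc-26 (0.0305), Y53G8AR.1 (0.0382) and C46H11.1 (0.0382), and for cyp-13A4 the ABC transporter gene mrp-6 (0.0357), K03H6.4 (0.0374) and the cadherin gene cdh-10 (0.0424). The profiles of cyp-13A8 and cyp-13A4 themselves had SDs of 0.731 and 0.507 over the arrays. In all 6 of these genes DMSO replicate 1 was the highest array, which follows from choosing them by likeness to profiles high there. The signal of lgc-26 was 9.46 there and 7.59 to 7.88 on the others, and mrp-6 read 8.33 there and 7.09 to 7.30 on the others. An excess of 1 or more over the mean of the other arrays was seen in 6.45% of all probe sets on DMSO replicate 1. On DMSO replicate 2 it was 0.137%. The excess on DMSO replicate 1 was larger than that cut in both genes. That of cyp-13A8 (1.76) was within the top 0.634% of all probe sets, and that of cyp-13A4 (1.23) within the top 3.65%.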
